A study of Mus musculus with 9 samples.

Results

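The hnRNP and SR splicing factors are the genes whose symbols in the deposited gene table begin with Hnrnp, or with Srsf and a number, without pseudogenes and antisense genes. This choice by name gave 31 of 32285 genes, 20 of the Hnrnp family and 11 of the Srsf family, and no measured value entered it. Their UMIs were followed in single cell RNA-seq libraries of whole mouse testis at postnatal day 24 (PND24), 1 library per mouse, from mice of 3 groups, labelled C57BL/6 (C57BL/6 J in the methods). The 4 control mice, which the study calls wild type, were littermates or non-littermates of the cKO mice. The 2 NELF-B cKO mice and the 3 TDP-43 cKO mice carried 1 floxed and 1 null allele of Nelfb or of Tardbp together with Stra8-iCre, a recombinase transgene active in germ cells from the spermatogonia on. Floxed Nelfb loses exons 1 to 4 and floxed Tardbp loses exon 3, so these deletions arise in germ cells only, while the null allele is not limited to them. Excision by Stra8-iCre is described as incomplete in mice of about this age. Germ cells were grouped as spermatogonia (SG), spermatocytes (SC) in pre-leptonema, leptonema and zygonema (pL/L/Z), pachynema (P) and diplonema (D), and round spermatids (RS).

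The hnRNP proteins coat nascent transcripts and often repress the use of nearby splice sites, and several of them also act in RNA transport, stability and translation. The SR proteins carry a domain rich in arginine and serine, bind exonic enhancers and recruit the spliceosome to the neighbouring splice sites, and kinases of the Clk and Srpk families set their activity by phosphorylation. Alternative splicing is unusually rich in testis, and the male germline replaces many of its transcripts between mitosis, meiosis and the haploid phase. TDP-43 is itself an RNA binding protein of the hnRNP type, and NELF-B is a subunit of the complex that holds RNA polymerase II near promoters.

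The libraries held 119203347 to 159407373 UMIs, and 37.5% to 78.3% of these lay in barcodes past the filter on genes and mitochondrial transcripts. Control replicate 1 had the lowest of these shares. Of 45132 barcodes, 27360 fell in clusters that were given a cell type. After cKO germ cells with a UMI of their targeted gene had been left out, 24016 cells remained. The largest cluster left out held 9838 barcodes, with a median of 1790 UMIs. It met fewer than 3 markers, namely Pou5f2 and Tbpl1, which are D SC markers. Control replicates 1, 2, 3 and 4 gave 4668, 15, 2043 and 1343 of its barcodes. The D SC described here are without these barcodes, and what they would change was not tested. The largest cluster left out for a low UMI median held 4917 barcodes, 98.8% of them from control replicate 2. Each control mouse gave 244 to 394 SG, 409 to 827 pL/L/Z SC, 209 to 593 P SC, 143 to 440 D SC and 271 to 773 RS. Median depth differed between mice, and in RS it ran from 2681 to 22590 UMIs per cell. Of the barcode sequences of the cells kept, 82 of 23934 occurred in more than 1 library. Scrublet called 0.318% of the cells doublets, too few for the caller to have worked, and doublets were kept. In the SG and pL/L/Z SC with no cell left out, Nelfb stood at 63.0 to 74.3 CPM in control mice and at 4.15 and 5.00 CPM in NELF-B cKO mice. Tardbp, whose counted 3′ end lies outside the deleted exon, stood at 95.4 to 135 CPM in control mice and at 34.2, 46.8 and 50.6 CPM in TDP-43 cKO mice.

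Levels are given in CPM, the UMIs of a gene scaled to a total of 1000000 UMIs for a cell type in 1 mouse. Each UMI marks 1 transcript molecule at its 3′ end, so levels of different genes can be set side by side with no scaling by length, but these counts do not separate splice isoforms. A CPM is a share of the RNA of a cell type. Fewer cells with a transcript, less of it per cell and more of other RNA cannot be told apart in it. Free RNA was measured in barcodes with 1 to 100 UMIs, since droplets with cells take it up too, and was not subtracted. The level in every control mouse lay below the lowest free RNA level of the same gene for 1 of 31 members in SG, 0 in pL/L/Z SC, 3 in P SC, 16 in D SC and 19 in RS. The part of free RNA in these values was not tested, and its level is printed for some of them only.

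The promoters of 5 hnRNP genes are shown because these genes took different courses between stages, and they were picked after their values had been seen. Each is the RefSeq window from 250 bases before to 50 bases after the annotated start on the GRCm38.p6 build, and capitals mark the motifs that are spelled out after the sequences, on either strand. Hnrnph2, the only X-linked member, has its window at chrX:134600929-134601228 on the plus strand, Hnrnpa1 at chr15:103240147-103240446 on the plus strand, Hnrnpab at chr11:51606832-51607131 on the minus strand, Hnrnph3 at chr10:63023800-63024099 on the minus strand, and Hnrnpa0 at chr13:58128507-58128806 on the minus strand.
Hnrnph2: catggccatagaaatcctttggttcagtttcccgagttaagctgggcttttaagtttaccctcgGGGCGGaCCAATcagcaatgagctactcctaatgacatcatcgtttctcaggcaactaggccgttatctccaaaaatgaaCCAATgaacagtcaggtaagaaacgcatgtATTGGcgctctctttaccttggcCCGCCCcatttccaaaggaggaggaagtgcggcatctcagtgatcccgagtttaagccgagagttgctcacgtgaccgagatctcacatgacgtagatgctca
Hnrnpa1: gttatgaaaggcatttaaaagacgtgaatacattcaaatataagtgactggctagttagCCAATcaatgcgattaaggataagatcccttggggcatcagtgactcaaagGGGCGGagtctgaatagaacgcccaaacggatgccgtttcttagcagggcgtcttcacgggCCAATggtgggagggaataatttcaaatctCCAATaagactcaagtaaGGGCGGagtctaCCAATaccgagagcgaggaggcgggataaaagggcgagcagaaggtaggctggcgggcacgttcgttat
Hnrnpab: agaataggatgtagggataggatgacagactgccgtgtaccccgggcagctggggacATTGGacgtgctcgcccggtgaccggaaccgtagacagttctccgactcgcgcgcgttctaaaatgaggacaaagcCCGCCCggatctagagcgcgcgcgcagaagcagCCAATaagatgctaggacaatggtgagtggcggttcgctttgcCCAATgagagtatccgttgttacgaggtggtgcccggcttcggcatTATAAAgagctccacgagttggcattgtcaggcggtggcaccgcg
Hnrnph3: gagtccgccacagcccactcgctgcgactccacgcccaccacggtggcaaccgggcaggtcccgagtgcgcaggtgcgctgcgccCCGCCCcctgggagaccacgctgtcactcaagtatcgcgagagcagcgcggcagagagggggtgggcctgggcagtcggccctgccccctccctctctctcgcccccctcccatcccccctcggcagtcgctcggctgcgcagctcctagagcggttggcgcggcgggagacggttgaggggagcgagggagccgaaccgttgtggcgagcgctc
Hnrnpa0: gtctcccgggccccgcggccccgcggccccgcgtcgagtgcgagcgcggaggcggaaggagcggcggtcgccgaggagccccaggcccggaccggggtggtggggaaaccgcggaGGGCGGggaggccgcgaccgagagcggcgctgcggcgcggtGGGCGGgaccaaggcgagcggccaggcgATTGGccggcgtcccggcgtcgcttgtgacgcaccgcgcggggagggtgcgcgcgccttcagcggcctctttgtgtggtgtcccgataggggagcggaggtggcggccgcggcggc

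The Hnrnpa1 window held CCAAT, the core of the element bound by the trimeric factor NF-Y, 4 times, and the Hnrnph2 and Hnrnpab windows held it 3 times each. CCAAT occurred once in the Hnrnpa0 window and was not among the letters of the Hnrnph3 window. Over the family, 29 members had 41 windows in the RefSeq table, and Hnrnpll and Hnrnpul2 are named only. GGGCGG, the GC box, lay in 82.9% of the member windows and in 35.7% of all 32851 windows. The shares for CCAAT were 51.2% and 37.4%, for CCGGAAG, an ETS-type motif, 24.4% and 8.86%, and for TATAAA 9.76% and 13.6%. TGACGTCA, the cyclic AMP response element, was in 0% of the member windows and in 1.79% of all windows. The median GC content was 68.3% in the member windows and 52.7% in all windows, so that GC-rich motifs have more chances to occur in the former. A match of letters does not show that a factor binds there.

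In control mice, both families took their largest share of germ cell RNA early and their smallest share in RS. The 20 hnRNP transcripts summed to 5344 ± 339 CPM (SD, n = 4) in SG and 5549.6 ± 255 CPM in pL/L/Z SC, and then to 4999 ± 272 CPM in P SC, 2815 ± 133 CPM in D SC and 2201 ± 118 CPM in RS. The 11 SR transcripts summed to 2748 ± 128 CPM in SG, 3274 ± 119.8 CPM in pL/L/Z SC, 2099.6 ± 118 CPM in P SC, 1073 ± 36.3 CPM in D SC and 860.4 ± 69.9 CPM in RS. By sub-stage the hnRNP sum was 5589.9 ± 332 CPM in pL, 4692 ± 164 CPM in L and 5883 ± 308 CPM in Z, so that L, at 4551 to 4922 CPM, lay below every SG sample, at 5130 to 5850 CPM. The hnRNP sums of the mice overlapped between SG and pL/L/Z SC as a whole, and those of both families stood apart between P and D SC. By its mean level, a member was highest in pL/L/Z SC in 17 cases, in SG in 7, in P SC in 6 and in D SC in 1. It was lowest in RS in 21 cases and in D SC in 7. Hnrnpll was lowest in SG, Hnrnpf in pL/L/Z SC and Hnrnph2 in P SC.

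**Figure D1:**
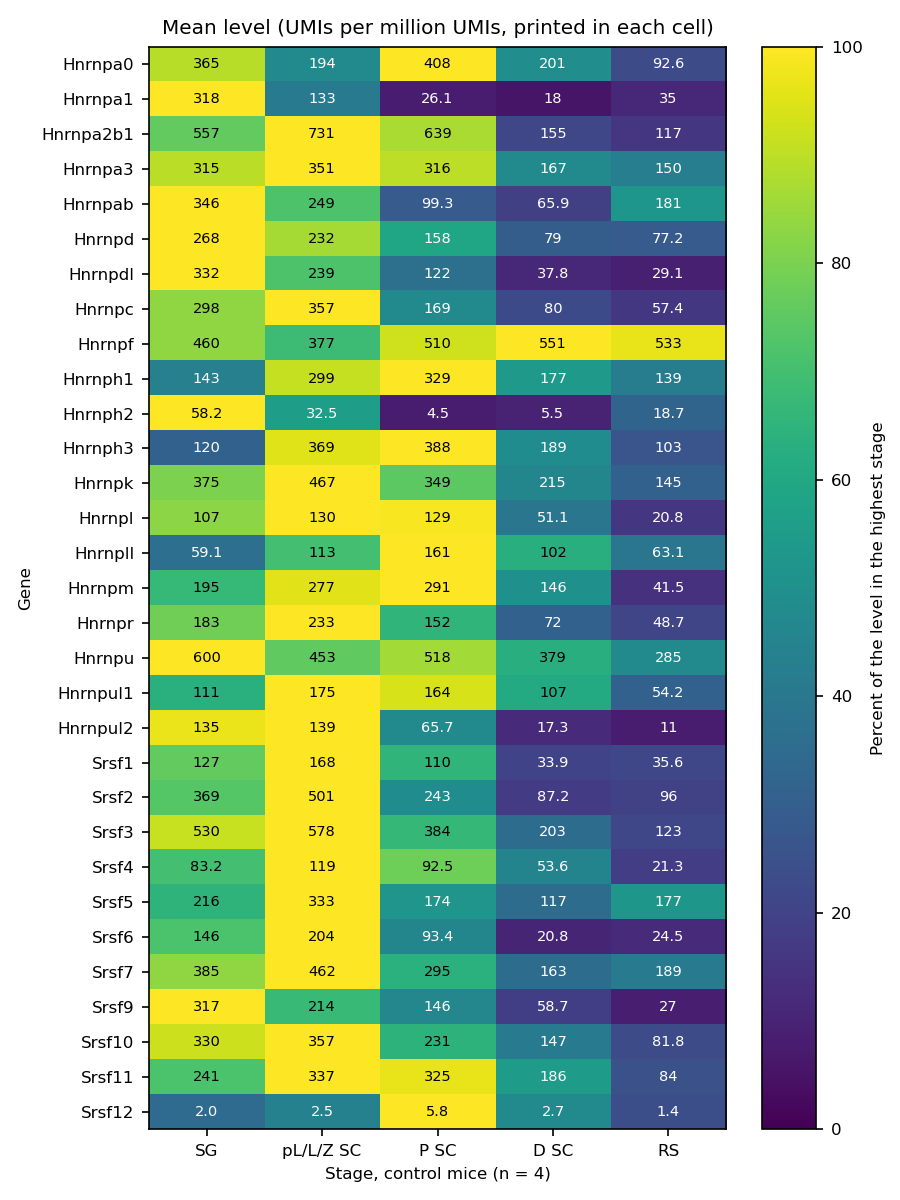
Each row is a member and each column a germ cell stage of the control mice, and the color gives the mean level as a percent of that gene's highest stage, with the mean CPM of the 4 mice printed in each cell. Most rows are bright in SG, pL/L/Z SC or P SC and dark in D SC and RS, while Hnrnpf stays bright in all columns and Hnrnph2 is darkest in P SC.

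Neighbouring stages were compared with edgeR's quasi-likelihood test, with the mouse as a block, over 19443 genes in 1 fit. Because the RNA of these stages differs in make-up, scaling decides small differences, and a gene is called higher or lower here only where its Benjamini-Hochberg adjusted p was under 0.05 in the same direction with TMM, with the relative log expression (RLE) scaling and with plain library sizes. Values in parentheses after a step are its log2 fold change in the TMM fit ± SE and its adjusted p. The median log2 fold change of all genes with TMM was 0.055 from SG to pL/L/Z SC, -0.31 to P SC, -0.093 to D SC and 0.093 to RS. With plain library sizes it was -0.052, -0.67, -0.26 and 0.29 in the same order. The TMM values in parentheses are thus shifted against the printed CPM, most at P SC, where they stand higher. Their SE leaves out the choice of scaling.

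From SG to pL/L/Z SC, 17 members were called higher and 8 lower, beside 25.5% and 28.6% of all genes. The SR family had 7 higher and 1 lower of 11, and the hnRNP family 10 higher and 7 lower of 20. From pL/L/Z to P SC, 5 members were called higher and 15 lower, beside 25.7% and 41.7% of all genes, and Srsf12 was the only SR gene among the former. From P to D SC, 0 members were called higher and 25 lower, beside 26.4% and 26.8% of all genes. From D SC to RS, 4 members were called higher and 20 lower, beside 38.8% and 33.1%. With TMM alone the counts were 20 and 8, 12 and 15, 2 and 29, and 4 and 23 in the same order, beside 29.6% and 28.7%, 32.1% and 41.8%, 30.3% and 34.1%, and 38.8% and 37.6% of all genes. The largest shift between scalings was in the rises at P SC, where 7 members passed with TMM but not with every scaling. The TMM falls of the P step also changed with the cells, mice and genes used. Without control replicate 1, 3 or 4 the median of all genes was -0.052 to -0.067 in place of -0.31. With all mice kept it was -0.080 without called doublets, -0.086 without the top 5% of doublet scores and -0.076 with no filter on low counts. In each of these 6, 9 in place of 15 members were lower. Over the main fit and 11 alternatives together, the members called in the same direction throughout were 17 higher and 7 lower in pL/L/Z SC, 5 higher and 9 lower in P SC, 0 higher and 25 lower in D SC, and 4 higher and 20 lower in RS. The shares of all genes in these 6 and throughout are not given, so these counts stand without a background. The 6 falls in P SC that did not last were those of Hnrnpd, Hnrnpr, Srsf1, Srsf3, Srsf7 and Srsf10. Hnrnpf, in turn, was the fall in pL/L/Z SC that did not last.

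**Figure D2:**
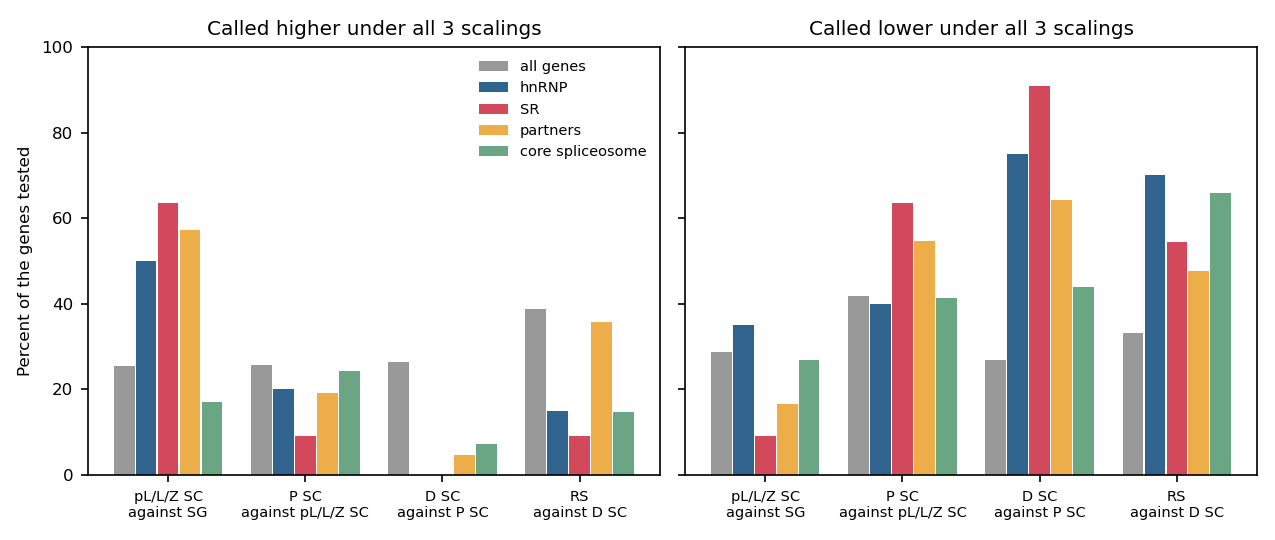
Bars give the percent of tested genes called higher (left panel) or lower (right panel) under all 3 scalings at each step between neighbouring stages of the control mice, for all genes, both families, the related RNA binding proteins and kinases, and the core spliceosome. Both families have no bar for D against P SC in the left panel, and there their bars in the right panel stand far above the 26.8% of all genes.

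A fixed list of related RNA binding proteins, SR kinases and regulators of splicing had 24 of 42 tested genes called higher and 7 lower in pL/L/Z SC, 8 higher and 23 lower in P SC, 2 higher and 27 lower in D SC, and 15 higher and 20 lower in RS. For 41 genes of the core spliceosome the counts were 7 and 11, 10 and 17, 3 and 18, and 6 and 27. Among the genes outside the families, chosen for mention after their values were seen, Srpk1, a kinase of SR proteins, rose in P SC (1.22 ± 0.087, adjusted p = 2.13e-10), while Clk1 fell (-0.57 ± 0.12, adjusted p = 0.000284). Khdrbs3, a STAR family splicing regulator, went from 55.0 ± 10.2 CPM in pL/L/Z SC to 327 ± 27.1 CPM in P SC. Elavl2 went from 173 ± 22.2 to 2.51 ± 0.728 CPM and Mbnl3, an X-linked muscleblind gene, from 105 ± 1.30 to 1.44 ± 0.371 CPM. Pcbp1, an intronless gene for a poly(C) binding protein, rose in P SC (1.64 ± 0.10, adjusted p = 2.3e-11), as did Rbmxl2, a testis-specific autosomal retrocopy of the hnRNP G gene Rbmx (1.18 ± 0.083, adjusted p = 1.74e-10). Rbmx itself, which is X-linked, fell (-3.39 ± 0.24, adjusted p = 1.95e-10).

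Within the A/B type hnRNPs, which bind UAG-like motifs and often promote exon skipping, the 4 genes took different courses. Hnrnpa1 was the member with the widest range between stages. It stood at 290.2, 389, 289 and 303 CPM in the 4 control mice in SG and at 144, 143, 121 and 123 CPM in pL/L/Z SC. All mice were lower at the later stage (log2 fold change -1.15 ± 0.091, adjusted p = 4.1e-09). In P SC it was at 25.6, 29.8, 21.0 and 27.9 CPM, again with no overlap (-2.00 ± 0.095, adjusted p = 6.57e-13). In D SC it stood at 16.9 to 20.4 CPM and in RS at 28.1 to 46.7 CPM, and the rise in RS passed under all scalings (0.75 ± 0.10, adjusted p = 1.34e-06). Its free RNA level was 53.4 to 263 CPM, above that of every P SC, D SC and RS sample, and the part of free RNA in these late UMIs was not tested. Hnrnpa1 also has many processed copies in the genome, and how the counting divides reads that match such copies is uncertain.

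Hnrnpa2b1, its close relative, stayed among the most abundant members until P SC and then fell. It stood at 668, 665, 538 and 685 CPM in P SC and at 139, 179.7, 139 and 160.1 CPM in D SC (-1.88 ± 0.10, adjusted p = 1.36e-11). Control replicate 3 was the lowest mouse in P SC and still far above every mouse in D SC. Hnrnpa0, an intronless gene whose product binds AU-rich elements, had a trough in pL/L/Z SC. Its levels were 365, 379, 368 and 348 CPM in SG, 207, 185, 187 and 197 CPM in pL/L/Z SC and 414, 422, 397 and 402 CPM in P SC. The mice of neighbouring stages did not overlap, with a fall (-0.80 ± 0.13, adjusted p = 3.28e-05) followed by a rise (1.43 ± 0.13, adjusted p = 8.73e-09). It then fell in D SC (-0.86 ± 0.13, adjusted p = 9.65e-06) and in RS (-1.34 ± 0.13, adjusted p = 2.47e-08), to 63.7 to 127 CPM. Hnrnpa3 was the flattest of the 4 in early stages, with mean levels of 315 ± 44.5, 351 ± 27.5 and 316 ± 48.9 CPM (SD, n = 4) in SG, pL/L/Z and P SC, and fell in D SC (-0.75 ± 0.079, adjusted p = 9.9e-08).

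The D-type genes Hnrnpab, Hnrnpd and Hnrnpdl encode relatives that bind AU-rich RNA, and Hnrnpd is best known as AUF1, a factor of mRNA decay. All 3 were highest in SG. Hnrnpab stood at 349.9, 357, 344 and 332 CPM in SG, 249, 263, 242 and 243 CPM in pL/L/Z SC and 102, 104, 93.9 and 97.1 CPM in P SC, and reached 74.1, 64.1, 61.8 and 63.7 CPM in D SC. In RS it was back at 179, 191, 165 and 189 CPM, and every RS sample lay above every D SC and P SC sample (1.27 ± 0.073, adjusted p = 8.03e-12). Its free RNA level was 124 to 258 CPM, which overlaps the level in RS, and the part of free RNA in the rise was not tested. Hnrnpdl fell at each step, from 323 to 349.5 CPM in SG to 227 to 249, 108 to 133, 33.1 to 40.2 and 27.5 to 31.7 CPM, with its largest fall in D SC (-1.52 ± 0.091, adjusted p = 4.78e-11). Hnrnpd did not pass between SG and pL/L/Z SC (-0.10 ± 0.073, adjusted p = 0.248), and fell in D SC (-0.83 ± 0.073, adjusted p = 7.88e-09).

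The H/F genes encode proteins that bind G tracts, and Hnrnph1 and Hnrnph2 are close paralogs, so that reads in shared sequence may be hard to assign. Hnrnph3 rose most of all members from SG to pL/L/Z SC. It stood at 123, 128, 116 and 112 CPM in SG and at 335, 378, 362 and 401 CPM in pL/L/Z SC, with every mouse above those in SG (1.73 ± 0.083, adjusted p = 7.38e-12). Its level in P SC was 408, 393, 374 and 377 CPM, which overlaps pL/L/Z SC, and the TMM difference of 0.42 was not called under all scalings. It then fell in D SC (-0.87 ± 0.08, adjusted p = 1.47e-08) and in RS (-1.08 ± 0.082, adjusted p = 4.52e-10). Hnrnph1 took a like course, from 123 to 173 CPM in SG to 273 to 331 CPM in pL/L/Z SC (1.18 ± 0.12, adjusted p = 1.29e-07) and 105 to 185 CPM in RS. Hnrnpf was the most even member. It stood at 441 to 488, 366 to 398, 504 to 516, 535 to 584 and 486 to 565 CPM from SG to RS, and rose in P SC (0.79 ± 0.076, adjusted p = 1.51e-08), so that in D SC and RS it had the highest mean level of the 31 genes.

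Hnrnph2 fell where Hnrnph1 and Hnrnph3 rose. In the 4 control mice it stood at 52.5, 67.6, 52.5 and 60.3 CPM in SG, at 29.9, 38.3, 30.7 and 31.1 CPM in pL/L/Z SC and at 4.96, 4.55, 4.77 and 3.66 CPM in P SC. It fell at both steps (-0.73 ± 0.12, adjusted p = 2.83e-05, and -2.52 ± 0.13, adjusted p = 2.1e-12), and no mice overlapped between these stages. In RS it stood at 14.6, 25.6, 16.4 and 18.4 CPM, above D SC at 5.52, 6.13, 5.84 and 4.43 CPM in every mouse (1.59 ± 0.13, adjusted p = 2.03e-09). Its free RNA level was 14.0 to 43.4 CPM, above the P and D SC and overlapping the RS. The X and Y chromosomes of mammals are silenced in pachynema, and some X-linked genes are transcribed again after meiosis. Of 713 X-linked genes tested, 81.9% were called lower and 0.842% higher in P than in pL/L/Z SC, with a median log2 fold change of -3.24, beside 40.2% and 26.8% of autosomal genes. From D SC to RS, 80.5% of the X-linked genes were called higher and 0.14% lower, beside 37.0% and 34.6% of autosomal genes.

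**Figure D3:**
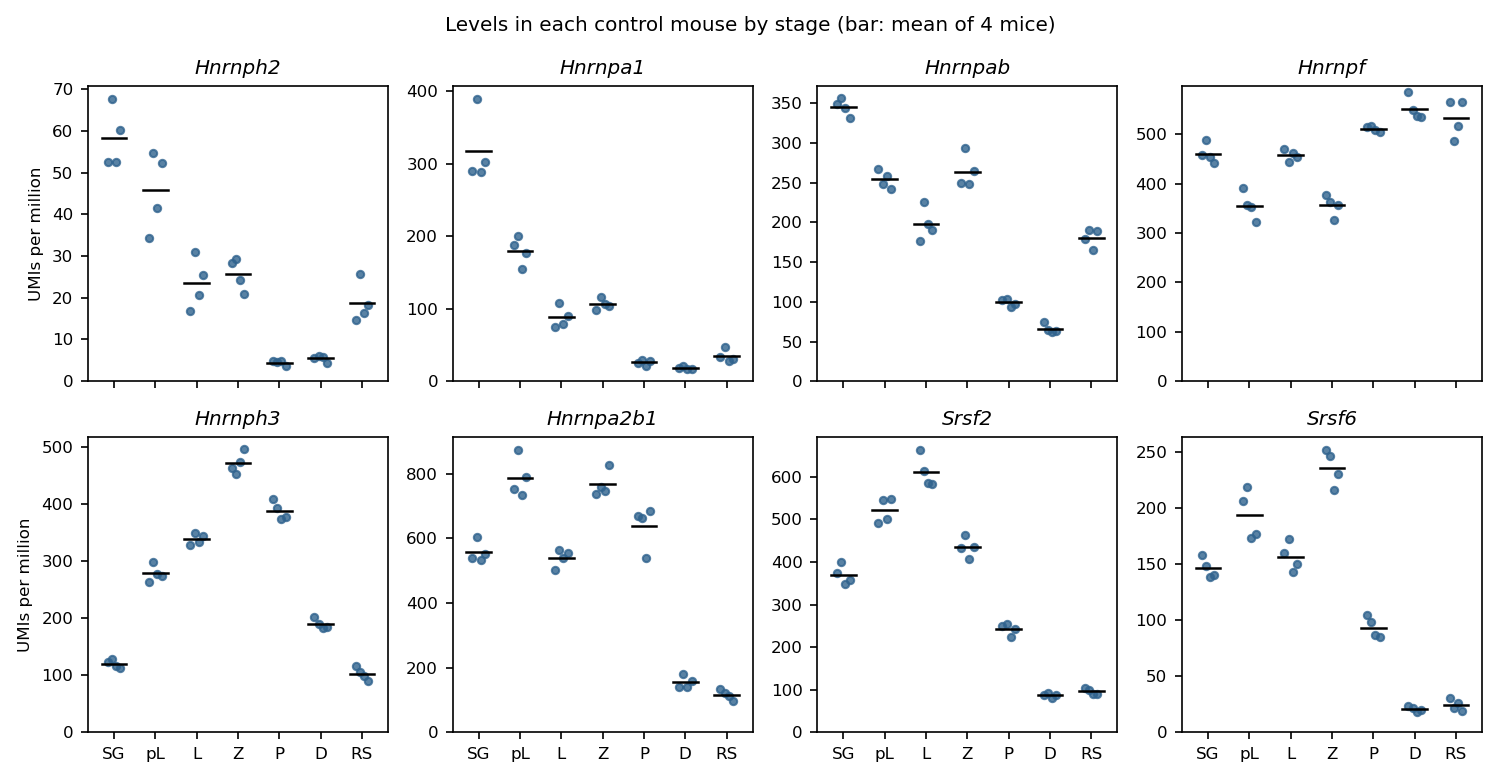
Each panel shows 1 of 8 members, with the stage on the horizontal axis (pL, L and Z apart) and CPM on the vertical axis, a point for each of the 4 control mice and a bar for their mean. Hnrnpa1 is far lower after SG, Hnrnpab and Hnrnph2 are lowest in D and P SC and higher again in RS, Hnrnpa2b1, Srsf2 and Srsf6 are lower in D SC than at any earlier stage, and Hnrnph3 is highest in pL/L/Z and P SC.

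Among the remaining hnRNP genes, Hnrnpc, whose product binds uridine tracts and keeps cryptic exons out of mRNA, rose from 279 to 342 CPM in SG to 330.5 to 395 CPM in pL/L/Z SC (0.37 ± 0.081, adjusted p = 0.000638). It fell to 153 to 189.5 CPM in P SC (-0.72 ± 0.081, adjusted p = 1.39e-07) and to 47.8 to 62.9 CPM in RS. Hnrnpk, a poly(C) binding KH protein, rose in pL/L/Z SC (0.42 ± 0.073, adjusted p = 6.91e-05) and did not pass in P SC (-0.062 ± 0.073, adjusted p = 0.453), where it turned to a rise that passed without control replicate 4 (0.20, adjusted p = 0.0327), without called doublets (0.19, adjusted p = 0.0198) and without the top 5% of doublet scores (0.20, adjusted p = 0.0226). By its mean CPM, however, Hnrnpk was highest in pL/L/Z SC. It fell in D SC (-0.54 ± 0.073, adjusted p = 2.62e-06) and RS (-0.76 ± 0.074, adjusted p = 1.77e-08). Hnrnpl, which binds CA repeats, and its paralog Hnrnpll, known from the splicing of Ptprc in lymphocytes, differed in P SC. Hnrnpll stood at 57.2, 63.7, 60.5 and 55.2 CPM in SG, 95.1, 140.1, 108 and 109 CPM in pL/L/Z SC and 154, 181, 162 and 148 CPM in P SC, with no overlap and a rise at each step (1.03 ± 0.073, adjusted p = 1.01e-09, and 0.88 ± 0.071, adjusted p = 1.25e-09). Hnrnpl also rose from SG to pL/L/Z SC (0.38 ± 0.10, adjusted p = 0.00299), was not called in P SC under all scalings, and fell from 43.0 to 60.2 CPM in D SC to 16.2 to 25.8 CPM in RS (-1.52 ± 0.11, adjusted p = 2.27e-10).

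Hnrnpm, a splicing factor that binds GU-rich RNA, had the largest fall of all members from D SC to RS. It stood at 278, 307, 294 and 283 CPM in P SC, 129, 168, 149 and 138 CPM in D SC and 52.8, 47.1, 37.1 and 29.0 CPM in RS, and the mice of the 3 stages did not overlap (-2.03 ± 0.12, adjusted p = 1.57e-11 for the last step). Hnrnpr, a relative of Syncrip, rose in pL/L/Z SC (0.46 ± 0.073, adjusted p = 2.73e-05) and fell in D SC (-0.91 ± 0.074, adjusted p = 2.54e-09) and RS, to 42.9 to 60.6 CPM. Hnrnpu, the scaffold attachment factor that also organizes chromatin, was highest in SG at 568 to 648 CPM, fell in pL/L/Z SC (-0.30 ± 0.07, adjusted p = 0.00121) and rose in P SC (0.55 ± 0.07, adjusted p = 8.72e-07). Its relatives differed from it. Hnrnpul1 rose in pL/L/Z SC (0.77 ± 0.088, adjusted p = 4.97e-07) and fell in RS (-1.19 ± 0.09, adjusted p = 4.86e-10), while Hnrnpul2 fell from 130.2 to 155 CPM in pL/L/Z SC to 57.3 to 73.7 CPM in P SC and 15.7 to 19.6 CPM in D SC (-1.76 ± 0.082, adjusted p = 2.98e-12 for the latter step).

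Srsf1, the prototype of the family, Srsf2, a nuclear speckle protein, and Srsf6 all rose in pL/L/Z SC and fell in D SC. Srsf6 stood at 213, 221, 182 and 198 CPM in pL/L/Z SC, 104, 98.1, 86.3 and 84.6 CPM in P SC and 23.4, 21.7, 18.3 and 19.8 CPM in D SC. These mice did not overlap, and the step from P to D SC was the largest fall of any member there (-2.00 ± 0.10, adjusted p = 3.61e-12). Srsf1 went from 155 to 191 CPM in pL/L/Z SC to 31.4 to 38.2 CPM in D SC (-1.52 ± 0.10, adjusted p = 2.19e-10 against P SC), and its difference in P SC (-0.26 ± 0.10, adjusted p = 0.0253) was 0.017 without control replicate 3. Srsf2 went from 485 to 523 to 224 to 254 and 81.6 to 91.6 CPM, with falls in P SC (-0.69 ± 0.065, adjusted p = 1.26e-08) and D SC (-1.31 ± 0.067, adjusted p = 7.32e-12). None of these 3 passed from D SC to RS.

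Srsf3, the smallest SR protein, had the highest mean level of the family in pL/L/Z SC, 578 ± 23.6 CPM (SD, n = 4), and fell in D SC (-0.75 ± 0.077, adjusted p = 6.44e-08) and in RS (-0.92 ± 0.078, adjusted p = 2.43e-09). Srsf7, which also carries a zinc knuckle, rose in pL/L/Z SC (0.37 ± 0.08, adjusted p = 0.000627) and fell in D SC (-0.69 ± 0.08, adjusted p = 3.55e-07), and stood at 172 to 211 CPM in RS. Srsf5 was the only SR gene called higher in RS than in D SC. It stood at 105, 125, 118 and 120.3 CPM in D SC and at 196, 166, 177 and 167 CPM in RS (0.40 ± 0.088, adjusted p = 0.00044), and its free RNA level was 168 to 291 CPM. Srsf4, a larger relative of Srsf5 and Srsf6, fell instead (-1.54 ± 0.09, adjusted p = 1.06e-11), to 18.2 to 25.9 CPM. Srsf9 was the only SR gene called lower in pL/L/Z SC than in SG (-0.46 ± 0.11, adjusted p = 0.00217), and went from 284 to 346 CPM in SG to 17.6 to 37.5 CPM in RS.

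Srsf10, a relative that can repress splicing when it is dephosphorylated, and Srsf11 both fell in RS (-1.04 ± 0.07, adjusted p = 8.76e-11, and -1.34 ± 0.071, adjusted p = 2.73e-12). Srsf12, a close relative of Srsf10, had the lowest mean level of the members in SG, pL/L/Z SC, D SC and RS, while Hnrnph2 was lower in P SC. Srsf12 stood at 2.31, 2.80, 2.80 and 2.18 CPM in pL/L/Z SC and at 5.73, 5.36, 5.26 and 6.70 CPM in P SC. All mice were higher in P SC (1.54 ± 0.22, adjusted p = 4.8e-06), and Srsf12 then fell in D SC (-0.94 ± 0.21, adjusted p = 0.000546) and RS (-1.16 ± 0.25, adjusted p = 0.000307), where its free RNA level of 0.704 to 6.41 CPM overlaps that of the cells.

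Somatic cells of the control mice held intermediate levels. The hnRNP sum was 4258 ± 444 CPM (SD, n = 4) in Sertoli cells, 3589 ± 425 CPM in Leydig cells, 3727 ± 219 CPM in interstitial cells and 4234 ± 610.3 CPM in myoid cells. The SR sum was 2059 ± 148 CPM in Sertoli cells, 1551 ± 115 CPM in Leydig cells, 1757 ± 104 CPM in interstitial cells and 1672 ± 81.9 CPM in myoid cells. All of these means lay below those of SG and above those of D SC. Among single genes, Hnrnph3 stood at 120.3 to 159.6 CPM and Hnrnph1 at 173 to 217 CPM in Sertoli cells, while Srsf10 had a mean of 326 ± 58.4 CPM in Sertoli cells and 138 ± 25.4 CPM in myoid cells. Sertoli cells held 1071349 to 3695720 UMIs per control mouse, and free RNA was not subtracted.

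The genotypes were compared in the summed SG and pL/L/Z SC of each mouse, the cells that the study pooled for its own test. Both cKO groups were set against the same 4 control mice. By edgeR's quasi-likelihood test over 19476 genes, 0 of the 31 members passed an adjusted p of 0.05 in NELF-B cKO and 0 in TDP-43 cKO mice. Beside them, 0.00513% of all genes passed in each, which is 1 gene. The removal leaves no UMI of the targeted gene in its cKO sums, so a call of that gene was fixed in advance. The lowest log2 fold changes of all genes were -13.0 and -13.8. At an unadjusted p under 0.05 there were 4 and 10 members, beside 14.3% and 24.3% of all genes, and DESeq2 called 2 and 4 members, beside 3.4% and 12.6% of all genes. Between TDP-43 and NELF-B cKO mice 0 members passed, beside 0.128% of all genes, with 4 at an unadjusted p under 0.05 (18% of all genes) and 1 by DESeq2 (5.12%). A member missing the threshold here may still differ, since the design has 2 and 3 cKO mice.

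In NELF-B cKO mice, Hnrnpab had the lowest p of the members. It stood at 295, 323, 297 and 283 CPM in control mice and at 380.2 and 394 CPM in NELF-B cKO mice, which lay above every control. The log2 fold change was 0.35 with a 95% interval of 0.17 to 0.54, and the adjusted p was 0.187 with edgeR and 0.000255 with DESeq2. Srsf10 was the other member that DESeq2 called (0.22 ± 0.076, adjusted p = 0.261 with edgeR, 0.0441 with DESeq2). In TDP-43 cKO mice, Hnrnph3 had the lowest p. It stood at 237, 219.6, 231 and 269.9 CPM in control mice and at 168, 197 and 189.9 CPM in TDP-43 cKO mice, all below the controls, with a log2 fold change of -0.31 (95% interval -0.51 to -0.11, adjusted p = 0.089 with edgeR and 0.0157 with DESeq2). DESeq2 also called Hnrnpdl, Srsf2 and Srsf3, for which edgeR gave log2 fold changes of 0.20, 0.20 and 0.18.

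Hnrnpm lay below every control mouse in both cKO groups. It stood at 225, 237, 231 and 242 CPM in control mice, at 215 and 171 CPM in NELF-B cKO mice and at 175, 200.4 and 203 CPM in TDP-43 cKO mice (-0.30 ± 0.10, adjusted p = 0.238, and -0.22 ± 0.084, adjusted p = 0.149). SG made up 45.4% to 63.5% of the UMIs of these sums in control mice, 54.5% and 69.2% in NELF-B cKO mice and 65.4% to 69.2% in TDP-43 cKO mice. Hnrnph3 and Hnrnpm are both lower in SG than in pL/L/Z SC, and Hnrnpab is higher. The make-up of the sum thus moves with their levels, and its part in the differences was not tested in the sum. In NELF-B cKO mice Hnrnpab lay above every control in SG alone and in pL/L/Z SC alone, and also in Sertoli cells. Within SG alone, Hnrnph3 gave -0.18 ± 0.084, adjusted p = 0.268 and within pL/L/Z SC alone 0.01 ± 0.10, adjusted p = 0.965 in TDP-43 cKO mice. Hnrnpm gave -0.065 ± 0.10, adjusted p = 0.801 in SG and -0.23 ± 0.10, adjusted p = 0.168 in pL/L/Z SC of TDP-43 cKO mice, where it lay below every control in both. In NELF-B cKO mice it gave -0.32 ± 0.11, adjusted p = 0.22 in pL/L/Z SC, again below every control, and -0.14 ± 0.12, adjusted p = 0.626 in SG, where the mice overlap with the controls.

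The mice of the 2 groups did not overlap for 7 members in NELF-B cKO and 9 in TDP-43 cKO mice, 22.6% and 29.0% of the family, beside 21.6% and 28% of all genes. In NELF-B cKO mice Hnrnpu, Srsf4, Srsf10 and Hnrnpab lay above and Hnrnpl, Hnrnph3 and Hnrnpm below the controls. In TDP-43 cKO mice Srsf2 and Srsf3 lay above and Srsf4, Hnrnpa2b1, Hnrnpul1, Hnrnph3, Hnrnpm, Hnrnpll and Hnrnpul2 below. These shares are near the background, and the counts are no result about the families.

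**Figure D4:**
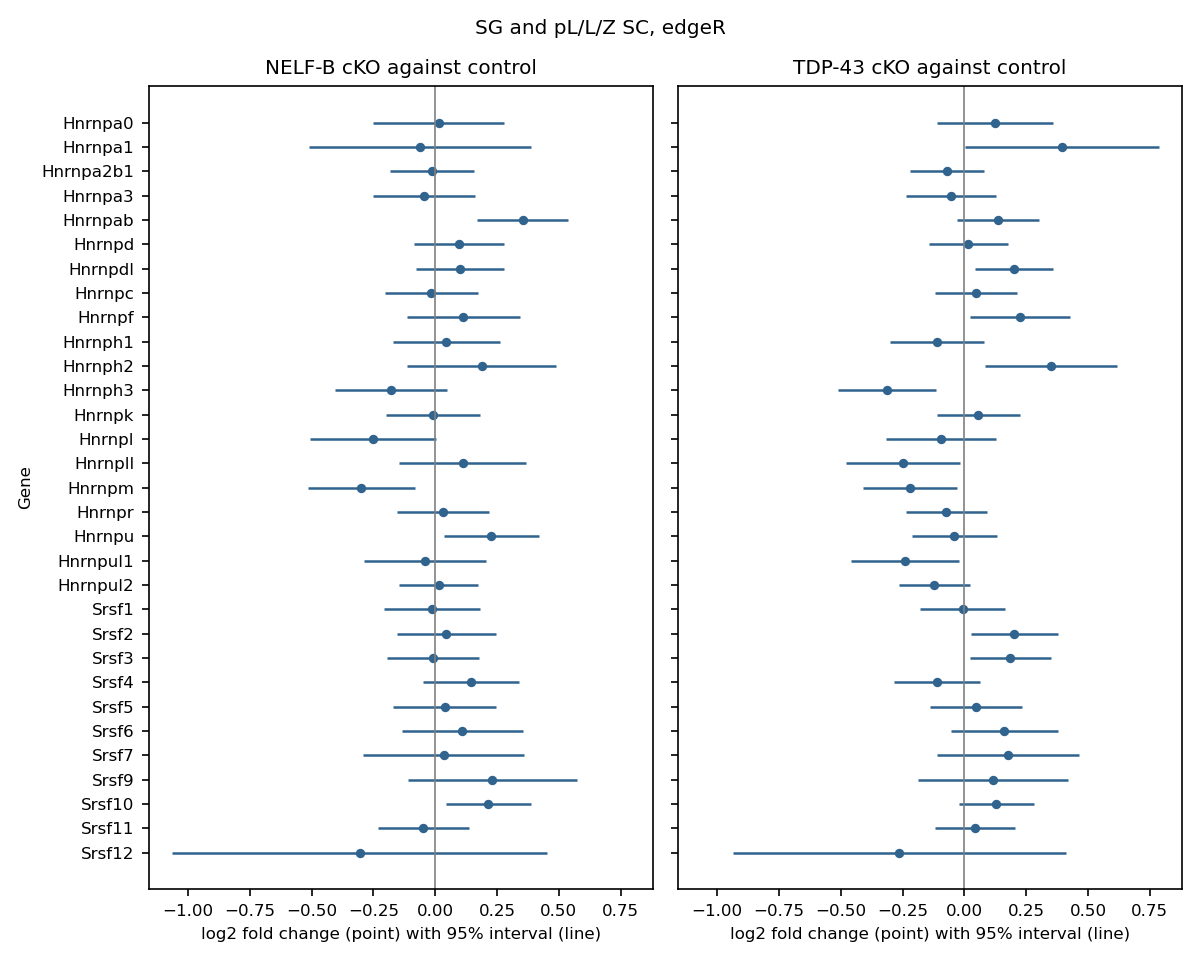
Each row is a member, and points give its log2 fold change against the 4 control mice in the summed SG and pL/L/Z SC, with 95% intervals as lines, in 2 NELF-B cKO mice (left panel) and 3 TDP-43 cKO mice (right panel). The points lie on both sides of 0, some intervals leave out 0, and 0 members pass an adjusted p of 0.05.

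In SG alone 0 members passed in either cKO, beside 0.0165% of all genes in NELF-B and 0.00551% in TDP-43 cKO mice. At an unadjusted p under 0.05 there were 5 and 6 members, beside 13.3% and 19.9% of all genes, and 1 and 3 by DESeq2, beside 2.03% and 9%. Non-overlapping levels were found for 8 members in each cKO group, 25.8% of the family, beside 20.3% and 22.7% of all genes. In TDP-43 cKO SG, Srsf6 and Srsf3 lay above every control, and Hnrnpa2b1, Hnrnpul1, Hnrnph3, Hnrnpm, Hnrnpll and Hnrnpul2 below. Srsf6 stood at 158, 148, 138 and 139.9 CPM in control mice and at 176, 172 and 170.4 CPM in TDP-43 cKO mice (0.33 ± 0.082, adjusted p = 0.116, and 0.00386 with DESeq2). Srsf3 stood at 543, 537, 515 and 526 and 622, 590.2 and 583 CPM in these groups (0.26 ± 0.07, adjusted p = 0.117, and 0.00193 with DESeq2).

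In pL/L/Z SC alone, 0 members passed in NELF-B cKO mice, beside 0.00651% of all genes, with 4 at an unadjusted p under 0.05 (15.2% of all genes) and 3 by DESeq2 (4.02%). In TDP-43 cKO mice 1 member passed, Hnrnph2, beside 0.827% of all genes, with 3 at an unadjusted p under 0.05 (25.4%) and 3 by DESeq2 (13.1%). It stood at 29.9, 38.3, 30.7 and 31.1 CPM in control mice, at 43.7, 59.6 and 52.3 CPM in TDP-43 cKO mice and at 42.8 and 47.4 CPM in NELF-B cKO mice. Both cKO groups lay above every control, and levels did not overlap for 7 members in NELF-B and 3 in TDP-43 cKO mice, beside 26.4% and 27.6% of all genes. The log2 fold change in TDP-43 cKO mice was 0.74 (95% interval 0.43 to 1.04, adjusted p = 0.0476, and 0.00023 with DESeq2), and in NELF-B cKO mice it was 0.47 (95% interval 0.13 to 0.80, adjusted p = 0.197). The call in TDP-43 cKO mice was lost with plain library sizes, with a block for the replicate number, and with the controls stripped of cells that held a Tardbp UMI. It was also lost in 5 of the 9 fits without 1 mouse, namely without control replicate 1, 3 or 4 and without TDP-43 cKO replicate 2 or 3, where the log2 fold change was 0.64 to 0.75 and the adjusted p 0.106 to 0.148.

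By sub-stage, looked at after these values had been seen and not tested, the Hnrnph2 levels of the groups stood apart in Z. In the Z cells it stood at 28.3, 29.3, 24.2 and 20.8 CPM in control mice, 60.7 and 69.1 CPM in NELF-B cKO mice and 83.8, 83.5 and 71.6 CPM in TDP-43 cKO mice. In pL it stood at 34.3, 54.8, 41.6 and 52.4, 51.5 and 41.7, and 48.7, 50.7 and 44.6 CPM in the same groups, and in L at 16.9, 31.0, 20.6 and 25.5, 20.7 and 29.2, and 26.5, 34.4 and 30.5 CPM, where the groups overlap. The Z cells of the TDP-43 cKO mice numbered 32, 203 and 205. Other X-linked genes together held 1.50, 1.79, 1.55 and 1.44% of the UMIs of Z cells in control mice, 2.03 and 2.40% in NELF-B cKO mice and 2.88, 2.88 and 2.93% in TDP-43 cKO mice. In pL this share was 1.95, 2.32, 2.17 and 2.24%, 2.09 and 2.26%, and 2.64, 2.49 and 2.48% in the same groups, and in L it was 2.00, 2.38, 2.20 and 2.24%, 2.17 and 2.33%, and 2.61, 2.48 and 2.55%. It lay above every control mouse in TDP-43 cKO mice in pL and L too, where the Hnrnph2 levels overlap.

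Marker levels in the pL/L/Z cells also moved with genotype. The summed level of the P markers in pL/L/Z SC was 275 to 312 CPM in control mice, 175 and 113 CPM in NELF-B cKO mice and 103 to 206 CPM in TDP-43 cKO mice, and that of the pL markers was 402 to 539 CPM, 840.3 and 629.7 CPM, and 616 to 1037 CPM. Since Hnrnph2 falls from pL to P SC in control mice, these sums move with it, and their part in the result was not tested. In Sertoli cells the P markers stood at 196 to 276 CPM in control, 160 and 63.2 CPM in NELF-B cKO and 49.8 to 106 CPM in TDP-43 cKO mice. The pL markers stood there at 35.2 to 62.5, 136 and 27.1, and 45.9 to 67.5 CPM in the same order. The part of free RNA in these sums was not tested. With no cell left out, Hnrnph2 stood at 49.3, 53.9 and 51.3 CPM in the pL/L/Z SC of the TDP-43 cKO mice.

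**Figure D5:**
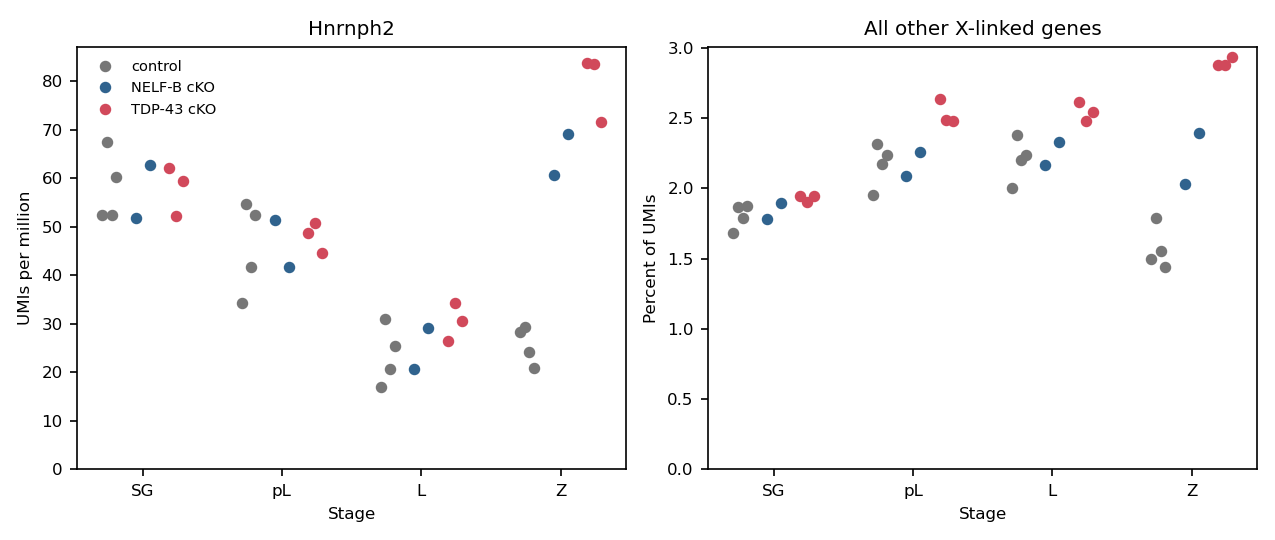
Points are mice, colored by group, in SG, pL, L and Z on the horizontal axis, and the vertical axis is Hnrnph2 in CPM (left panel) or the percent of UMIs from all other X-linked genes (right panel). In Z the cKO mice lie above the control mice in both panels, and in pL and L the Hnrnph2 levels of the groups overlap, while the X-linked share of the TDP-43 cKO mice lies above the controls there too.

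In P SC the removal of cells with a Tardbp UMI left 0, 6 and 4 cells in TDP-43 cKO mice. This stage was therefore compared with no cell left out. The TDP-43 cKO mice then had 5, 141 and 107 P SC, and replicate 1 is not in the fit. Most of their P SC compared here thus held a Tardbp UMI, and the study left out germ cells of these mice that expressed TDP-43. Whether the cells compared had lost TDP-43 was not tested. In NELF-B and TDP-43 cKO mice 0 members passed, beside 0.0908% and 0.0194% of all genes, with 1 and 0 at an unadjusted p under 0.05 (9.99% and 6.42% of all genes) and 0 by DESeq2 in both (1.13% and 0.596%). Hnrnph2 lay above every control in both groups, at 4.96, 4.55, 4.77 and 3.66 CPM in control mice, 7.44 and 9.97 CPM in NELF-B cKO mice and 6.90 and 5.51 CPM in TDP-43 cKO mice (0.93 ± 0.23, adjusted p = 0.216, and 0.48 ± 0.23, adjusted p = 0.842). These levels lie below the free RNA level given above. Levels did not overlap for 4 members in NELF-B and 5 in TDP-43 cKO mice, beside 16.1% and 22.9% of all genes.

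Sertoli cells, in which Stra8-iCre is not active, served as a comparison of the mice themselves. In cKO mice these cells carry the null allele too, so they are not free of a difference in genotype. Of 30 members tested, 0 passed in NELF-B cKO mice, beside 0% of all genes, and 0 in TDP-43 cKO mice, beside 7.41% of all genes, with 2 and 1 at an unadjusted p under 0.05 (8.63% and 28.5% of all genes), and 0 and 1 by DESeq2 (0.45% and 18.6%). The 7.41% was itself unstable, at 0.463% with RLE scaling and 15.5% without the top 5% of doublet scores. It was 0% with the replicate block, without control replicate 1, 3 or 4 and without any 1 of the TDP-43 cKO mice. Levels did not overlap for 3 and 1 members, beside 14.1% and 32.4% of all genes. Hnrnpab stood at 202, 299, 289.8 and 262 CPM in the Sertoli cells of the control mice and at 403, 332 and 354 CPM in those of the TDP-43 cKO mice (0.49 ± 0.15, adjusted p = 0.0667, and 0.00511 with DESeq2). In the NELF-B cKO mice it stood at 380.0 and 336 CPM (0.46 ± 0.17, adjusted p = 0.499). Median depth of Sertoli cells was 2083 to 5464 UMIs in control mice and 6117.5 to 22982 UMIs in TDP-43 cKO mice. These cells were spread differently over clusters. Cluster 13, with a median of 37510 UMIs per cell, held 8.68% to 32.1% of the Sertoli cells of control mice and 38.3% to 55.9% of those of TDP-43 cKO mice, and cluster 10, with a median of 2189 UMIs, held 40.1% to 75.2% and 31.4% to 47.0%. In NELF-B cKO mice cluster 13 held 14.7% and 20.3% and cluster 10 held 81.7% and 54.1%. The part of depth and of these clusters in the difference was not tested.

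The difference between the effect in germ cells and that in Sertoli cells was tested as an interaction. For NELF-B cKO, 0 members passed, beside 0.00499% of all genes, with 1 at an unadjusted p under 0.05 (9.27% of all genes) and 0 by DESeq2 (0.594%). For TDP-43 cKO, 1 member passed, Hnrnpab, beside 4.62% of all genes, with 16 at an unadjusted p under 0.05 (25.3% of all genes) and 0 by DESeq2 (5%). The median difference of all genes in this comparison was -0.26. The effect on Hnrnpab in germ cells was lower than in Sertoli cells (-0.68 ± 0.18, adjusted p = 0.0477), where the germ cell levels were 295, 323, 297 and 283 CPM in control mice and 328, 306 and 312 CPM in TDP-43 cKO mice. With RLE scaling its difference was -0.39 (adjusted p = 0.172). Hnrnpab missed the threshold in every fit without 1 TDP-43 cKO mouse, with -0.28 without TDP-43 cKO replicate 1. Among the fits without 1 control mouse it missed the threshold in all but that without control replicate 2, with -0.20 without control replicate 1.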

How the data were processed

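Whole testes of 9 mice at PND24 gave 1 10x 3′ single cell library each. The deposited matrices are raw UMI counts of every barcode, produced by the authors with Cell Ranger on the mm10 genome (7.0.0 in the methods, 6.1.1 in the processing notes) and not normalized. After the study's filter (more than 1000 genes, less than 10% mitochondrial UMIs, genes seen in more than 15 barcodes), cells were clustered with scanpy 1.11.5 and leidenalg 0.10.2 (3000 variable genes, 40 components, 20 neighbours, resolution 0.8, seed 7). A cluster took a cell type from at least 3 markers at 2-fold or more above the rest. Clusters that also met the markers of another lineage were left out. A minimum median of 2000 UMIs per cluster and a maximum of 80% of cells from 1 mouse were chosen with the clusters in view, and stage names rest on these rebuilt clusters. No member is a marker, and the members' own counts were set aside before the cells were grouped. Stages were still drawn from other genes of the same cells.

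In cKO mice only, as in the study, germ cells that held a Nelfb UMI (233 cells) or a Tardbp UMI (3111 cells) were removed. The removal took deeper cells. Median UMIs of SG went from 36337.5, 22604 and 23767.5 to 25290, 17896 and 19171 in the TDP-43 cKO mice. Control cells were not selected in this way in the main fits. UMIs were summed per mouse and cell type and tested in R 4.3.3 with edgeR 4.0.16 (filterByExpr, TMM, glmQLFit, glmQLFTest), two-sided, with Benjamini-Hochberg adjustment over all genes. DESeq2 1.42.0, the study's tool in version 1.36, was an alternative. The scripts were tested on simulated data, where TMM was biased between cell types of unlike RNA, so stage calls were required under 3 scalings. Intervals are 95% and use the moderated degrees of freedom. By the study's methods the libraries come from separate mice, and the sample titles number them as replicates. Counts of UMIs carry counting error besides the spread between mice.

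The members were picked by their symbols alone, but this rule, the gene lists and the tests were chosen with earlier results of these data known. Named members were Hnrnpa1, Hnrnpa2b1, Hnrnpc, Hnrnpk, Hnrnpl, Hnrnpu, Srsf1, Srsf2, Srsf3 and Srsf10 whatever their values, and for each comparison the 6 called members of largest log2 change among rises and among falls. Other members were described for their role in a family. Motifs were searched on both strands of RefSeq promoter windows.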

Additional observations from a re-analysis of the deposited data

Results flagged for a closer look

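Of 155 sets of 4 control values checked (31 members in 5 stages), 9 held a mouse far from the others, and chance alone gives about 1 in 20. In 7 of the 9 the mouse was control replicate 2. Its Hnrnpk level in SG was 404 CPM, beside 363 to 367 CPM in the other mice, its Hnrnpc level in SG was 342 CPM beside 279 to 289.9 CPM, and its Hnrnpa1 level in SG was 389 CPM beside 289 to 303 CPM. Hnrnph2 in the pL/L/Z SC of the same mouse stood at 38.3 CPM beside 29.9 to 31.1 CPM, Srsf10 in P SC at 249 CPM beside 223 to 227 CPM, and Hnrnpul1 at 193 CPM beside 150.5 to 157 CPM in P SC and at 73.0 CPM beside 46.2 to 48.9 CPM in RS. Control replicate 1 was low for Srsf4 in SG, at 75.2 CPM beside 85.4 to 86.2 CPM, and control replicate 3 for Hnrnpa2b1 in P SC, at 538 CPM beside 665 to 685 CPM.

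The effect of TDP-43 cKO on Hnrnpab differed between germ and Sertoli cells by -0.68 on the log2 scale by edgeR's interaction test (adjusted p = 0.0477). The call was lost with RLE scaling (-0.39, adjusted p = 0.172), with DESeq2 and with plain library sizes. It was also lost in every fit without 1 TDP-43 cKO mouse and in all but 1 of the fits without 1 control mouse.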

How the results depend on the processing

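Among the values of single members under the alternatives, 2995 kept their side of the threshold, and changes of sign with no call in either fit count among these. A further 48 lost the call, 24 gained it and 11 changed sign where the main or the alternative value was called. Of these 11, 4 passed an adjusted p of 0.05 in the opposite direction, those of Hnrnpk without called doublets (adjusted p = 0.0198), without the top 5% of doublet scores (0.0226) and without control replicate 4 (0.0327), and that of Srsf2 (0.0326). From pL/L/Z to P SC, Hnrnpk was 0.19 without called doublets, 0.20 without the top 5% of doublet scores and -0.065 to 0.21 without 1 mouse, Hnrnpl was -0.013 with plain library sizes, Srsf1 was 0.00697 without the top 5% of scores and -0.26 to 0.017 without 1 mouse, and Srsf3 was 0.011 without called doublets, 0.021 without the top 5% of scores and -0.29 to 0.056 without 1 mouse. From D SC to RS, Srsf2 was 0.14 with plain library sizes. The alternative on doublet scores was added after seeing the data.

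With DESeq2 the number of members called was 2 for NELF-B and 4 for TDP-43 cKO in SG with pL/L/Z SC, 1 between the cKO groups, 1 and 3 in SG, 3 and 3 in pL/L/Z SC, 1 for TDP-43 cKO in Sertoli cells and 0 for the TDP-43 interaction, beside 3.4% and 12.6%, 5.12%, 2.03% and 9%, 4.02% and 13.1%, 18.6% and 5% of all genes in the same order. With cells holding a targeted-gene UMI left out of the controls too, the numbers were 1 for NELF-B cKO in SG with pL/L/Z SC (2.11% of all genes), 0 for TDP-43 cKO in pL/L/Z SC (4.9%) and 0 for the interaction (0%), and this was not run for Sertoli cells alone. Plain library sizes gave 0 for TDP-43 cKO in pL/L/Z SC and 0 for the interaction, RLE, no filter on low counts and no called doublets each gave 0 for the interaction, the top 5% of scores left out gave 1 for TDP-43 cKO in Sertoli cells (15.5% of all genes) and 4 for the interaction (11%), and no germ cell left out gave 2 for the interaction (5.69%). Leaving out each mouse in turn gave 0 to 1 between the cKO groups (1 without NELF-B cKO replicate 2, beside 13.6% of all genes), 0 to 2 for TDP-43 cKO in SG (2 without NELF-B cKO replicate 1, beside 7.78%), 0 to 2 in pL/L/Z SC (2 without NELF-B cKO replicate 1 or 2, beside 12.1% and 12%), 0 to 3 for NELF-B cKO in P SC (3 without NELF-B cKO replicate 2, beside 13.7%) and 0 to 11 for the interaction (11 without control replicate 2, beside 9.13%). Where 1 NELF-B cKO mouse is left out, the other is assumed to vary like the mice of the other groups. Over all genes, 1 passed for TDP-43 cKO in SG with pL/L/Z SC, but 2491 and 2503 passed without NELF-B cKO replicate 1 or 2 (12.3% each, with 0 members among them) and 2461 with DESeq2, and for NELF-B cKO 663 in place of 1 passed with DESeq2. Counts of members called at each stage step, both directions together, stayed within 1.5 times of their main values under every alternative, but split by direction the fall at P SC went from 15 to 9 members in 6 alternatives, and the rises went from 12 to 5 at P SC and from 2 to 0 at D SC with plain library sizes, and from 2 to 1 at D SC with no filter on low counts and without control replicate 2. With no replicate block, which leaves out the pairing of stages within a mouse, TMM called 26, 24, 31 and 27 members in the 4 steps. The shares of all genes called in these alternatives of the stage steps are not given, so these counts have no background. RLE scaling turned the split of all genes from P to D SC from 5896 higher and 6622 lower to 7314 and 5219. The replicate numbers were not taken to pair the mice (correlations of -0.17 to -0.01 for TDP-43 cKO and 0.32 and 0.38 for NELF-B cKO with the controls). The deviations of the 2 NELF-B cKO mice from their mean mirror each other, so this check cannot decide pairing for them. With the replicate block 0 members passed for TDP-43 cKO in pL/L/Z SC and in the other genotype comparisons within the same cells. The interaction already has the mouse as a block, so the number was not added to it. The causes of these changes were not tested. Rare members limit precision, with Srsf12 at a few CPM in every stage.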
